A study of Mus musculus with 2 samples.

Results

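A set of 10 miRNAs in serum extracellular vesicles (EVs) was examined because their hairpins are made without Drosha, namely the capped-end miRNAs mmu-miR-320-3p, mmu-miR-320-5p and mmu-miR-484, the mirtron arms mmu-miR-877-5p, mmu-miR-877-3p, mmu-miR-1224-5p, mmu-miR-1224-3p and mmu-miR-702-3p, and the snoRNA-derived mmu-miR-1839-5p and mmu-miR-1839-3p. They were picked by name, and all 10 were found among the 1847 miRNAs listed in both libraries. EVs are small membrane-bound vesicles shed by cells. The library labelled control came from mice whose genotype label is WT, described in the study's methods as IR flox/flox mice, and the library labelled iFIRKO came from Adipoq-CreERT2; Insr flox/flox mice, in which the adiponectin promoter drives a tamoxifen-inducible Cre so that the insulin receptor is deleted in adipocytes. All animals were 7-week-old males injected with 100 mg/kg tamoxifen on 5 consecutive days and sampled at day 3 after the last dose, and serum of several mice was pooled for each library. The Cre acts in adipocytes, whereas serum EVs come from many cell types.

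Each group had 1 library, so no difference between genotypes could be tested, and the intervals below are 95% intervals from counting error only. A ratio divides the deposited iFIRKO value by the deposited control value. Depth was 1.71-fold greater for the control group (3817902 counts) than for the iFIRKO group (2233498 counts). Counts from 2 to 9 did not occur in either table, and the lowest value stands for a count under 10, called the floor here. All 10 members were above the floor in both libraries. Since no miRNA can show whether the receptor gene was deleted, directions follow the labels as given, and the libraries are called the control and the iFIRKO library below. The labels could not be checked from the files, and an exchange of the 2 libraries would invert every ratio. In serum EVs, fewer vesicles of a type and less RNA per vesicle cannot be told apart.

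Most miRNAs start as long transcripts from which the nuclear enzyme Drosha, with its partner DGCR8, cuts a hairpin that Dicer then trims in the cytoplasm. Some hairpins skip the first cut. The hairpin of miR-320 is transcribed as such and carries the methylguanosine cap of a nascent transcript, which keeps its 5p arm out of Argonaute and favours the 3p arm. Mirtrons are short introns that fold into a hairpin once the spliceosome has removed them, so that splice sites and not Drosha set their ends. Certain snoRNAs and scaRNAs, which guide the chemical modification of other RNAs, also give Dicer-cut fragments that act as miRNAs.

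Mature sequences of 7 of the 10 members were in the RefSeq table (GRCm38.p6). They are shown because the mirtron arms lie at the ends of introns, and the capitals mark the seed, bases 2 to 8 counted from the 5′ end. miR-702-5p, the other arm of the hairpin of miR-702-3p, is added for comparison.

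mmu-miR-484: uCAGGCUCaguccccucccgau

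mmu-miR-877-5p: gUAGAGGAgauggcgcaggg

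mmu-miR-877-3p: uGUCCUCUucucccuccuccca

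mmu-miR-1224-5p: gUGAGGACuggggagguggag

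mmu-miR-1224-3p: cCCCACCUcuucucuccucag

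mmu-miR-702-5p: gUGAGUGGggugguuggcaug

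mmu-miR-702-3p: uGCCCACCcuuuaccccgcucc

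mmu-miR-1839-5p: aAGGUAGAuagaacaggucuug

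All 8 seeds differ from each other. No other listed miRNA with a RefSeq sequence had the seed of one of these 7 members. The seed of miR-702-5p was shared with miR-3102-5p (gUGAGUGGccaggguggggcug), which reached 17 and 26 counts in the control and the iFIRKO library. The nearest other mature sequence lay at least 5 single-base edits from each of these 8 miRNAs.

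The annotation (GENCODE M21, GRCm38) placed the 3 mirtron hairpins at introns. The hairpin Mir877 (chr17:35960730-35960814, minus strand) fills an 85-base intron of Abcf1 from its first to its last base. Mir1224 (chr16:20604452-20604536, plus strand) likewise fills an 85-base intron of Vwa5b2. Mir702 (chr5:136991433-136991541, plus strand) starts 9 bases before a 102-base intron of Plod3 (136991442 to 136991543) and ends 2 bases short of its end. The first base of miR-877-5p, miR-1224-5p and miR-702-5p is the first base of the intron. The last base of miR-1224-3p is the last base of the intron, while miR-877-3p stops 1 base and miR-702-3p stops 2 bases before it.

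All 3 of the 5p arms start with GU, the splice donor, as do 37 of the 663 listed 5p arms with a sequence (5.58%). The 3p arms were rich in pyrimidines, which precede a splice acceptor. Of the 3, only miR-1224-3p ends in the acceptor's AG, as do 186 of the 667 listed 3p arms with a sequence (27.9%). Pyrimidines made up 90.9% of miR-877-3p, 85.7% of miR-1224-3p and 81.8% of miR-702-3p, against a median of 59.1% over 667 listed 3p arms. Purines made up 80.0% of miR-877-5p, 81.0% of miR-1224-5p and 66.7% of miR-702-5p, against a median of 54.5% over the 5p arms. miR-1839-5p and miR-484 had neither a GU start nor an AG end.

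The other hairpins lie as follows. Mir320 (chr14:70443510-70443591, plus strand) is outside any longer annotated transcript and 63 bases from the start of Polr3d, a subunit gene of RNA polymerase III on the opposite strand. Mir484 (chr16:14159626-14159692, plus strand) is covered on the opposite strand by part of an exon and an intron of a Marf1 transcript. Its mature miRNA takes bases 5 to 26 of the 67-base hairpin, that is, the 5p side. Mir1839 (chr7:81529916-81529988, plus strand) is in an exon or an intron of the lincRNA 2900076A07Rik, depending on the transcript. It shares 66 of its 73 bases with a scaRNA gene of the same name (81529855 to 81529981), so that counts of the miRNA and of fragments of the scaRNA cannot be told apart by position.

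The levels of the members spanned a wide range. miR-320-3p, the most abundant, reached 2482 counts (650 CPM, the deposited value scaled to 1000000) in control and 1450 (649 CPM) in iFIRKO serum EVs, rank 92 and rank 91 of the 1847 miRNAs. miR-1839-5p followed with 1175 (308 CPM) and 610 counts (273 CPM). miR-484 came next with 627 (164 CPM) and 485 counts (217 CPM). These 3 miRNAs held 86.4% of the members' counts in the control library and 84.0% in the iFIRKO library. The mirtron arms were far lower in both libraries, between 9.17 and 22.3 CPM in the control library and between 13.9 and 56.0 CPM in the iFIRKO library. Together the 10 members made up 0.130% of the control library (Wilson interval 0.126 to 0.133) and 0.136% of the other (0.131 to 0.141).

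**Figure D1:**
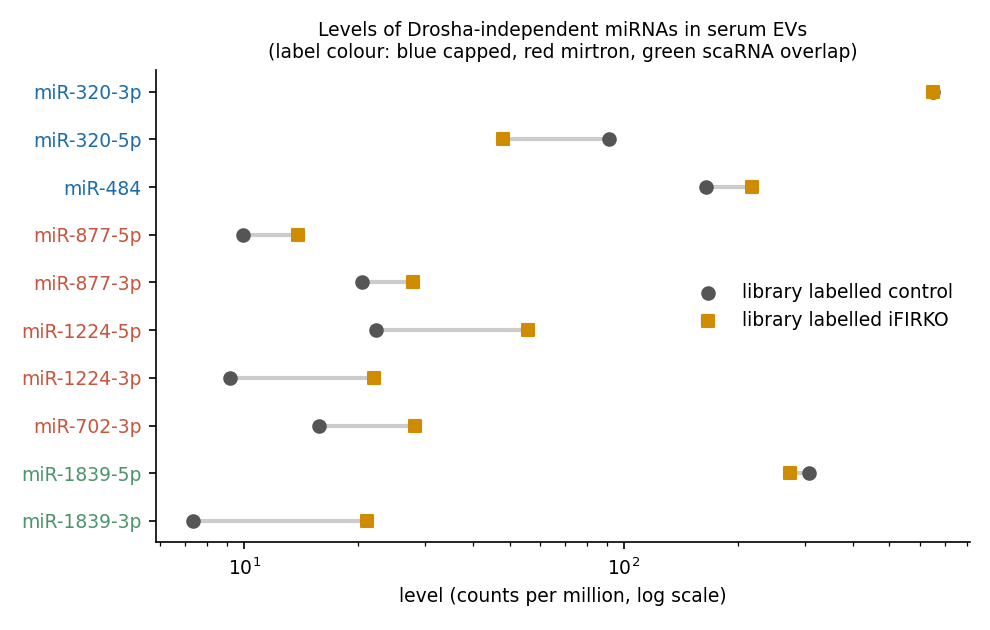
Level of each member in CPM (x axis, log scale) in the control library (grey circles) and the iFIRKO library (orange squares), 1 library each, with names coloured by route. The points of miR-320-3p coincide near 650 CPM, all 5 mirtron arms lie further right in the iFIRKO library, and miR-320-5p and miR-1839-5p lie further left.

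Summed over each route, the levels compared as follows. The 3 capped-end miRNAs together made up 0.0905% of the control library and 0.0914% of the iFIRKO library, which gave a ratio of 1.01 (interval 0.955 to 1.07). The 2 arms of Mir1839 made up 0.0315% and 0.0294%, which gave a ratio of 0.934 (interval 0.848 to 1.03). The 5 mirtron arms together rested on 296 and 330 counts and made up 0.00775% and 0.0148%, which gave a ratio of 1.91 (interval 1.62 to 2.24). The median ratio was 1.84 over all listed miRNAs and 2.01 over those with a mean count from 10 to 100, a class that holds 4 of the 5 mirtron arms. With TMM scaling, described below, the ratio was 1.05 for the mirtron arms (interval 0.898 to 1.24), 0.559 for the capped-end miRNAs (0.529 to 0.590) and 0.516 for the arms of Mir1839 (0.469 to 0.568).

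Of the 10 members, 4 were over 1.5-fold higher in the iFIRKO library (miR-1224-5p, miR-1224-3p, miR-702-3p and miR-1839-3p), against 66.3% of all listed miRNAs. Only miR-320-5p was over 1.5-fold lower, against 3.03% of all listed miRNAs. The median log2 ratio was 0.46 over the members and 0.88 over all 1847 miRNAs. The ratio depended on abundance in these libraries, so the members were also read within their abundance class. Of the 5 members with a mean count from 10 to 100, 3 were over 1.5-fold higher and none was lower, whereas 76.7% of the 1350 miRNAs of that class were higher and 0.444% were lower. Of the 4 members with a mean count from 100 to 1000, miR-1224-5p was higher and miR-320-5p was lower, while 47.0% of the 302 miRNAs of that class were higher and 2.32% were lower.

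**Figure D2:**
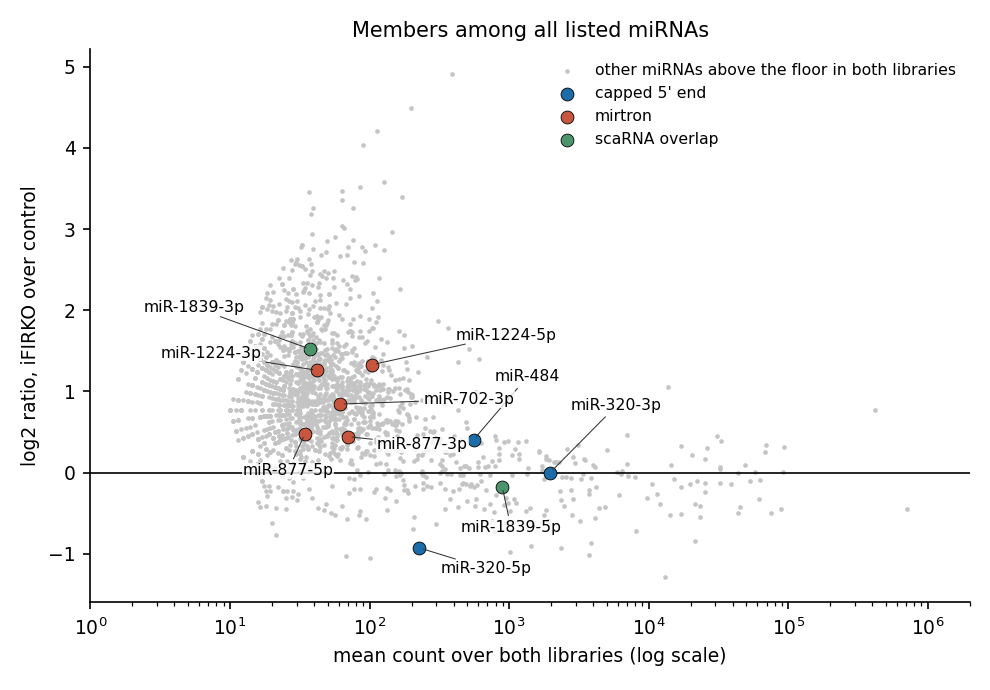
Log2 ratio of the iFIRKO library to the control library (y axis) against the mean count over both libraries (x axis, log scale) for every miRNA that neither library had at the floor, members coloured by route. The mirtron arms sit inside the cloud of low-count miRNAs at log2 ratios from 0.44 to 1.33, and miR-320-5p sits at -0.93 along the lower edge of the cloud.

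The calls at 1.5-fold depended on the scaling. TMM scaling, which assumes that most miRNAs do not differ, divided every ratio by 1.81, or 0.85 in log2 units. With it 1 member, miR-1839-3p, was over 1.5-fold higher, against 21.0% of all listed miRNAs, and 3 members, miR-320-3p, miR-320-5p and miR-1839-5p, were over 1.5-fold lower, against 19.5%. The ratios of miR-484, both arms of miR-877 and miR-702-3p were above 1 on the deposited scale and below 1 with TMM scaling. Ratios of one member to another within a library do not depend on the scaling and are given below for that reason.

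Among the capped-end miRNAs, the arms of miR-320 moved apart. miR-320-3p had a ratio of 0.999 (95% interval 0.935 to 1.07). miR-320-5p, the arm that the cap keeps out of Argonaute, reached 348 counts (91.1 CPM) in control and 107 (47.9 CPM) in iFIRKO serum EVs, so that the ratio was 0.526 (interval 0.419 to 0.655). Its rank was 202 and 417 of 1847. In its abundance class (mean counts between 100 and 1000) only 1 of 302 miRNAs ranked lower. miR-484, which has a single annotated mature form and has often been used as a reference for circulating miRNAs, had a ratio of 1.32 (95% interval 1.17 to 1.49). Relative to miR-320-3p, the ratio of miR-484 was 1.32 (95% interval 1.16 to 1.52), so these 2 capped-end miRNAs differed by more than their counting error. That comparison was not adjusted for abundance, and the 2 miRNAs are in different abundance classes. Against the median of its own class, the log2 ratio was 0.07 for miR-320-3p and -0.13 for miR-484, the reverse order.

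Among the mirtrons, both arms of miR-1224 were higher in the iFIRKO library. miR-1224-5p reached 85 counts (22.3 CPM) in control and 125 (56.0 CPM) in iFIRKO serum EVs, so that the ratio was 2.51 (interval 1.89 to 3.35). miR-1224-3p reached 35 (9.17 CPM) and 49 counts (21.9 CPM), so that the ratio was 2.39 (interval 1.52 to 3.80). The host gene Vwa5b2 encodes a protein with a von Willebrand factor A domain. Both ratios lay above the median of their abundance class, by 0.80 and 0.25 on the log2 scale.

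The other mirtron arms had smaller ratios, all below the median of their abundance class. Relative to that median, the log2 ratio was -0.53 for miR-877-5p, -0.56 for miR-877-3p, -0.16 for miR-702-3p and -0.49 for miR-702-5p. miR-877-5p reached 38 counts (9.95 CPM) in control and 31 (13.9 CPM) in iFIRKO serum EVs, so that the ratio was 1.39 (interval 0.839 to 2.30). miR-877-3p reached 78 (20.4 CPM) and 62 counts (27.8 CPM), so that the ratio was 1.36 (interval 0.957 to 1.92). Neither interval of the miR-877 arms, which come from an intron of the translation factor gene Abcf1, excludes 1. With both arms summed the ratio on the deposited scale was 1.37, and its interval (1.03 to 1.82) does exclude 1. miR-702-3p reached 60 (15.7 CPM) and 63 counts (28.2 CPM), so that the ratio was 1.79 (interval 1.24 to 2.60). Plod3, its host gene, encodes a lysyl hydroxylase that modifies collagen. The other arm, miR-702-5p, reached 37 and 31 counts, and its ratio was 1.43 (interval 0.859 to 2.37).

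The snoRNA-derived arms went different ways. miR-1839-5p had a ratio of 0.887 (95% interval 0.803 to 0.979), below 1 on the deposited scale. miR-1839-3p reached 28 counts (7.33 CPM) in control and 47 (21.0 CPM) in iFIRKO serum EVs, so that the ratio was 2.87 (interval 1.76 to 4.76), the highest among the 10 members. Of the listed miRNAs, 81.3% had a lower ratio than miR-1839-3p and 8.39% had a lower ratio than miR-1839-5p. The 2 arms are in different abundance classes. Relative to the median of its own class, the log2 ratio was -0.70 for miR-1839-5p and 0.52 for miR-1839-3p.

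**Figure D3:**
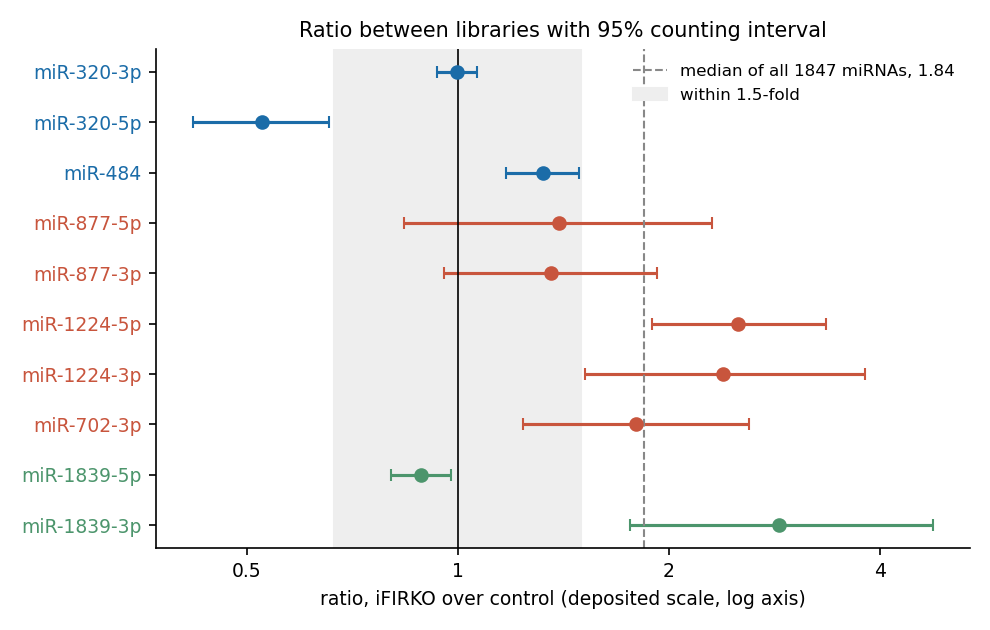
Ratio of the iFIRKO library to the control library for each member (x axis, log scale) with 95% intervals from counting error, names coloured by route, a grey band within 1.5-fold and a dashed line at the median of all listed miRNAs (1.84). miR-320-5p lies left of the band, miR-320-3p lies at 0.999, and the intervals of both miR-1224 arms and of miR-1839-3p lie right of the band.

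The balance of the 2 arms of a hairpin was compared next, since it does not depend on scaling or depth. It was not adjusted for abundance, on which the ratios depended. The 5p and 3p arms had mean counts of 227.5 and 1966 in miR-320, and of 892.5 and 37.5 in miR-1839. The median log2 ratio was -0.07 over all miRNAs with a mean count over 1000, 0.53 from 100 to 1000 and 1.01 from 10 to 100. In miR-320 the 5p arm made up 12.3% of both arms' counts in the control library (95% Clopper-Pearson interval 11.1 to 13.6) and 6.87% in the iFIRKO library (5.67 to 8.24). The excess of the 3p over the 5p arm was 7.13-fold and 13.6-fold, respectively. In miR-1839, where the 5p arm dominates, its share was 97.7% (96.7 to 98.4) and 92.8% (90.6 to 94.7). The intervals of the 2 libraries do not overlap for either hairpin. The minor arm thus lost share in miR-320 and gained share in miR-1839.

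In the 3 mirtrons the arm balance differed by less than the counting error. The 5p arm held 32.8% of miR-877 in the control library (24.3 to 42.1) and 33.3% in the iFIRKO library (23.9 to 43.9). In miR-1224 it held 70.8% (61.8 to 78.8) and 71.8% (64.5 to 78.4), so the 5p arm led in both libraries. In miR-702 it held 38.1% (28.5 to 48.6) and 33.0% (23.6 to 43.4). The change in the ratio of 5p to 3p counts was 1.03-fold in miR-877 (95% interval 0.575 to 1.83), 1.05-fold in miR-1224 (0.628 to 1.76) and 0.798-fold in miR-702 (0.441 to 1.45), and these intervals reach past 1.5-fold upwards in miR-877 and miR-1224 and downwards in all 3.

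Of the 610 hairpins with both arms above the floor, 44.6% changed by over 1.5-fold in either direction, as miR-320 and miR-1839 did among the 5 hairpins here. The minor arm lost over 1.5-fold in 116 hairpins and gained over 1.5-fold in 156. Among the 70 hairpins with both arms at a mean count of at least 100, the minor arm lost over 1.5-fold in 4, of which miR-320 is one, and gained over 1.5-fold in 13. A total of 11.8% of the 610 hairpins had a lower change of the minor against the dominant arm than miR-320, and 97.5% had a lower change than miR-1839.

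**Figure D4:**
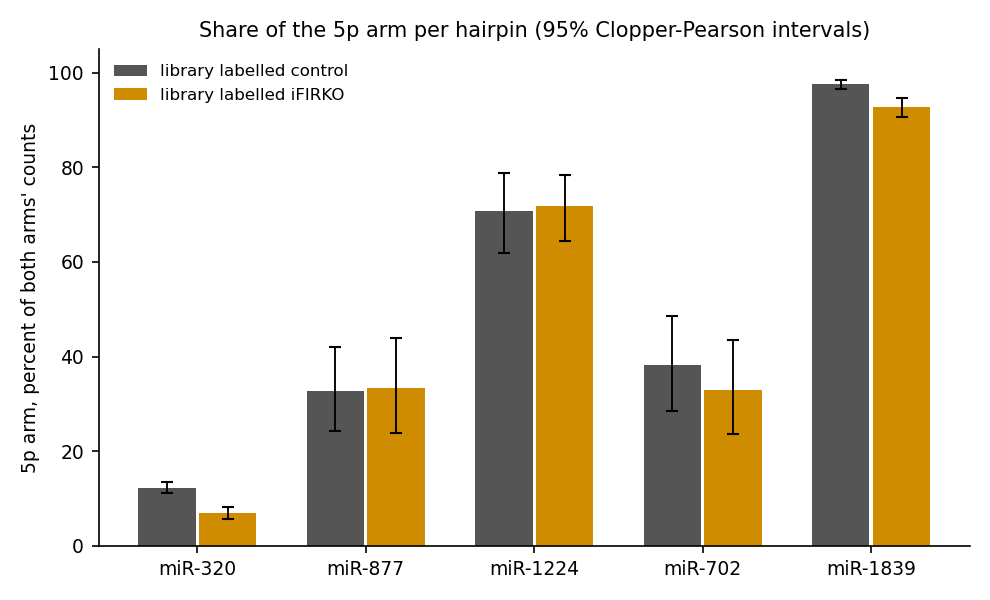
Share of the 5p arm in the counts of both arms (y axis, percent) for 5 hairpins in the control library (grey) and the iFIRKO library (orange), with 95% Clopper-Pearson intervals. The bars of miR-877, miR-1224 and miR-702 have overlapping intervals, and those of miR-320 (12.3% and 6.87%) and miR-1839 (97.7% and 92.8%) do not.

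With both arms summed, the 6 hairpins could be ordered without regard to the scaling. The ratios rose from miR-1839 (0.934) and miR-320 (0.940) through miR-484 (1.32), miR-877 (1.37) and miR-702 (1.66) to miR-1224 (2.48). This order was not adjusted for abundance, and miR-320 and miR-1839 had the most counts (2830 and 1203 in the control library). Over all listed miRNAs the median log2 ratio was -0.07 at a mean count over 1000, 0.53 from 100 to 1000 and 1.01 from 10 to 100. Of the 15 pairs of hairpins, 11 had a ratio of ratios whose 95% counting interval excludes 1, with no adjustment for the number of pairs. The 4 pairs that could not be told apart were miR-320 and miR-1839, and each pair among miR-484, miR-877 and miR-702. miR-1224 stood above every other hairpin, by 1.5-fold over miR-702 (95% interval 1.04 to 2.16), by 1.81-fold over miR-877 (1.26 to 2.59) and by 2.64-fold over miR-320 (2.07 to 3.35). Thus the mirtron miR-1224 differed from the mirtrons miR-877 and miR-702 by more than counting error. The ratio of miR-702 to miR-877 was 1.21 (95% interval 0.815 to 1.79), which includes 1.

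Other miRNAs of the same routes were found by position in the annotation and not by value. Hairpins with both ends within 10 bases of the ends of 1 intron on the same strand were counted as mirtrons. Besides the 5 members they gave 39 arms, 38 from 20 other hairpins and miR-702-5p. Of these, 37 were above the floor in both libraries, and of these 29 were over 1.5-fold higher in the iFIRKO library and none was lower. With the arms at the floor counted as deposited, 30 of the 39 (76.9%) were higher and 1 was lower, beside 66.3% higher and 3.03% lower among all listed miRNAs and 76.7% higher among those with a mean count from 10 to 100. The median log2 ratio was 1.15, against 0.84 for the 5 mirtron members and 1.01 for all miRNAs with a mean count from 10 to 100, and the median of the mean counts was 39.

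The 3 most abundant of the other mirtron arms had mean counts between 100 and 1000, a class with a median ratio of 1.44. miR-1981-5p reached 508 counts (133 CPM) in control and 396 (177 CPM) in iFIRKO serum EVs, so that the ratio was 1.33 (interval 1.17 to 1.52). miR-3062-5p reached 294 and 245 counts, and its ratio was 1.42 (interval 1.20 to 1.69). miR-7018-5p reached 142 and 184 counts, and its ratio was 2.21 (interval 1.77 to 2.78). Of the 21 sequenced 5p arms in the list 13 start with GU. The 18 sequenced 3p arms had a median pyrimidine share of 71.7%, and 11 of them end in AG.

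Hairpins that share bases with an annotated snoRNA or scaRNA gene on the same strand gave 21 arms besides miR-1839-5p, from 13 other hairpins. All 21 were above the floor, 15 (71.4%) were over 1.5-fold higher and none was over 1.5-fold lower in the iFIRKO library, beside 66.3% and 3.03% of all listed miRNAs. The median log2 ratio was 0.84, against 0.88 over all listed miRNAs. miR-3068-5p reached 335 and 240 counts, and its ratio was 1.22 (interval 1.03 to 1.45). miR-664-5p, from the snoRNA gene Snora36b, reached 314 and 261 counts, and its ratio was 1.42 (interval 1.20 to 1.68). miR-3068-3p reached 293 and 276 counts, and its ratio was 1.61 (interval 1.36 to 1.90). The ratio of miR-1839-5p, 0.887, lay below the intervals of all 3. The same list also held 2 arms with lower ratios than miR-1839-5p, named after their values were seen, miR-1843a-5p at 0.864 (interval 0.667 to 1.11) and miR-1843b-5p at 0.707 (interval 0.449 to 1.09).

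**Figure D5:**
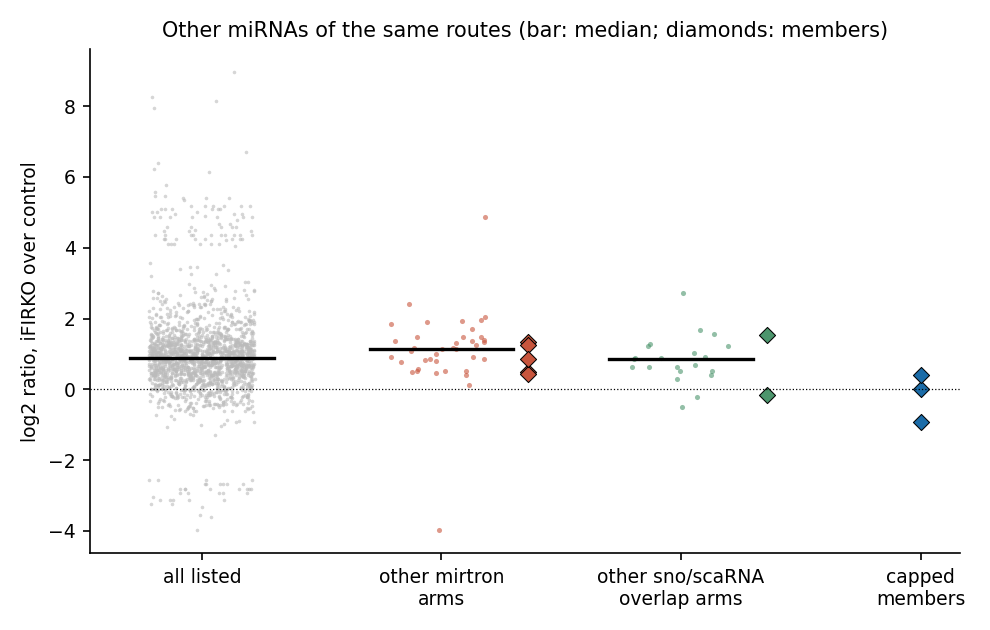
Log2 ratio of the iFIRKO library to the control library (y axis) for all 1847 listed miRNAs, the 39 other mirtron arms and the 21 other arms that overlap snoRNA or scaRNA genes, with a black bar at each median (0.88, 1.15 and 0.84) and diamonds for the members. The points above about 4 or below about -2 are mostly miRNAs at the floor of 1 library, and the capped-end members lie at -0.93, -0.00 and 0.40.

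Markers of blood cells and liver moved between the libraries as well. All 5 erythroid miRNAs (miR-451a, miR-144-3p, miR-144-5p, miR-486a-5p and miR-486b-5p) had ratios below 1, from 0.409 to 0.760, and their sum was 45035 CPM in the control library and 30907 CPM in the iFIRKO library. The miRNAs taken as platelet markers were miR-223-3p and miR-126a-3p, neither of them specific to platelets. Both were below 1, with ratios from 0.710 to 0.799 and sums of 49992 and 37462 CPM. All 3 liver miRNAs (miR-122-5p, miR-192-5p and miR-194-5p) were above 1, from 1.36 to 1.71, with sums of 120542 and 201885 CPM. No marker was at the floor. The log2 ratio of miR-451a to miR-23a-3p, a measure of hemolysis, was -0.63 in the control library and -1.80 in the iFIRKO library. The part of these cells in the values of the members was not tested.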

How the data were processed

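Small RNA of serum EVs was sequenced by the authors from QIAseq miRNA libraries on a NextSeq500 and analysed on the GeneGlobe Data Analysis Center. The genome build in the submitters' processing notes is mm10, and the aligner, the miRNA annotation release and the use of molecular identifiers are not given in the sources used here. The deposited normalized signal equals recovered counts over a constant of each library, since 100% of the values came out within 0.1 of a whole count. That constant was taken as the depth.

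Ratios were taken on the deposited scale with the study's 1.5-fold threshold. Their 95% intervals were derived by the Clopper-Pearson method from how the 2 counts split between libraries, and those of ratios of ratios from the normal approximation on the log scale. PCR copies may not be independent molecules, so intervals cover counting error only. The interval procedure was tested on simulated counts with Poisson error only. That test cannot show how the intervals behave with PCR copies or with variation between libraries. The members, marker lists and position rules were chosen with earlier results of these data known, and counting scaRNA genes with snoRNA genes was decided after the annotation was seen. Named were all members, the other arms of their hairpins, at most 3 miRNAs per shared seed, the 3 most abundant of each position list, the markers and miR-148a-3p. Positions are from GENCODE M21. Of the listed miRNAs, 1592 had a RefSeq sequence, and 949 hairpins entered the position lists. Alternatives were 4 scalings, including TMM of edgeR 4.0.16 in R 4.3.3, 1 CPM added, a 2-fold threshold, filters at a mean count of 10 and 100, the floor at 10 counts, and hairpin ends within 5 bases of an intron. Python 3.11.15 with scipy 1.17.1 was used.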

Additional observations from a re-analysis of the deposited data

How the results depend on the processing

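Each of the 10 member ratios was recomputed under 6 settings, 60 values in all. Of these, 44 stayed within the counting interval and 16 fell outside it, among them all 10 with TMM scaling. With TMM scaling 4 ratios fell from above to below 1: miR-702-3p, called at 1.5-fold on the deposited scale, to 0.993, miR-484 to 0.731, miR-877-5p to 0.771 and miR-877-3p to 0.752. With equal totals miR-320-3p was 1.001, just above 1. The settings moved the ratios by fixed factors of 0.998 (equal totals), 1.20 (median of ratios), 1.16 (miR-148a-3p, itself 24524 and 16705 counts) and 1.81 (TMM). With TMM scaling 1 member was over 1.5-fold higher and 3 were lower, beside 21.0% and 19.5% of all listed miRNAs. The members' median log2 ratio was then -0.39. A mean count of at least 100, which leaves 5 members, gave 1 higher and a median of -0.0020, and a 2-fold threshold left 0 lower. Adding 1 CPM, setting the floor to 10 counts and a mean count of at least 10 changed neither count of members by over 1.5 times.

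With TMM scaling, 21.0% of all listed miRNAs were over 1.5-fold higher and 19.5% were lower. Of the 39 other mirtron arms, 11 were higher and 2 lower with that scaling (median 0.29). On the deposited scale, 4 of the 6 arms left at a mean count of at least 100 were higher. Of all miRNAs with a mean count from 100 to 1000, 47.0% were higher. Hairpin ends within 5 bases kept the median at 1.15. The snoRNA and scaRNA list gave 3 higher and 2 lower of 21 arms with TMM scaling (median -0.010). At a mean count of at least 100 it gave 5 higher of 8 arms on the deposited scale. The list of hairpins near transcript starts gave 50 higher and 45 lower of 219 arms with TMM scaling (median 0.11). At a mean count of at least 100 it gave 24 higher and 4 lower of 62 arms on the deposited scale (median 0.27).

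No paired analysis was possible because neither genotype was sequenced more than once, and leaving out a library was not run. The arm shares do not depend on the scaling, and no member was at the floor. The mirtron arms and miR-1839-3p rest on 125 counts or fewer in each library.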

Other observations

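Another position list held hairpins within 200 bases of the annotated start of a transcript that is not a small RNA, on either strand. It gave 219 arms besides those of the members, from 135 other hairpins and Mir702, and was not specific to capped hairpins, since its 3 most abundant miRNAs, miR-16-5p, let-7i-5p and miR-126a-3p, are cut by Drosha. Of the 219 arms, 146 (66.7%) exceeded 1.5-fold in the iFIRKO library and 8 fell short by as much, with a median log2 ratio of 0.96, beside 66.3% higher, 3.03% lower and a median of 0.88 over all listed miRNAs. miR-16-5p had 994113 and 426219 counts, a ratio of 0.733. let-7i-5p had 115041 and 67542 counts, a ratio of 1.004. miR-126a-3p had 106349 and 44166 counts, a ratio of 0.710. By the same distance Mir702, 83 bases from a start of Plod3, is in the list, while Mir484, 359 bases from the nearest start, is not. Mir320, 63 bases from the start of Polr3d, meets the distance but is also absent. Only hairpins with a mature sequence in the RefSeq table could enter the position lists, and the arms of miR-320 had none.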
